A study of Mus musculus with 6 samples.

Results

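The 10 genes described here belong to the circadian clock and its first output layer: the activators Arntl (also called Bmal1) and Clock, the repressors Per1, Per2, Per3 and Cry2, the nuclear receptors Nr1d1 and Nr1d2 (REV-ERB alpha and beta), and the output transcription factors Dbp and Tef. They were taken by name from the 34492 rows of the scanner table, and each of the 10 had 1 row. RNA came from whole soleus, a slow muscle of the calf, of male mice aged 11 months with the strain designation CBB6F1xFVB/n in both genotypes. In the Coco/KO mice, per the series title, skeletal muscle alpha-actin was replaced with cardiac actin. The comparison group was wild-type mice. There were 3 arrays per genotype, all on 1 Illumina chip, and each array held a pool of RNA from 2 soleus muscles of different mice, so the spread between arrays is a spread between pools. The sources used here do not give the promoter that drives the cardiac actin, the number of lines or the hour at which muscles were taken.

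The clock is a transcriptional feedback loop that nearly every cell runs. ARNTL and CLOCK bind E-boxes and switch on the Per and Cry genes, whose proteins return to the nucleus and block them, and they also switch on Nr1d1, Nr1d2, Dbp and Tef. The REV-ERB receptors repress Arntl through ROR elements, at which the ROR receptors act as activators, so that Arntl transcripts peak nearly opposite to those of Nr1d1 and Dbp. DBP and TEF are PAR bZIP proteins that bind D-boxes and carry the rhythm to further genes. In skeletal muscle this system is known for timing glucose and lipid use.

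The promoters of the genes were searched for the letters of these elements. RefSeq promoter windows (GRCm38.p6, 250 bases before to 50 after an annotated start) were found for 9 of the 10 genes, in 14 windows, and were searched on both strands for the E-box CACGTG, the related E′-box CACGTT, the D-box in its forms TTATGTAA and TTACGTAA, and the ROR element core in its forms TAGGTCA and TGGGTCA. The E-box and the E′-box share 5 of their 6 letters, and none of the matches overlapped another. The stretches that hold a match are shown with the match in capitals, read 5′ to 3′ along the gene's own strand, where a match on the opposite strand appears as its reverse complement (AACGTG for the E′-box). Positions count from the annotated start, with -1 as the base before it. The Per1 and Arntl windows shown belong to starts inside the gene. They lie downstream of the first base of the locus (69095108 for Per1 and 113178471 for Arntl).
Nr1d1, E′-box on the opposite strand at -28 to -23, chr11:98775378-98775457, minus strand: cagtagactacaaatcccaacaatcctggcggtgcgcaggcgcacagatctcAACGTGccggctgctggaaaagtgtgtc
Tef, first start, E-box at -127 to -122, chr15:81802509-81802588, plus strand: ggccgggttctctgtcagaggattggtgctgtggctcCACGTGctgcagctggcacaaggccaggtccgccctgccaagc
Tef, second start, E-box at -138 to -133, chr15:81811239-81811318, plus strand: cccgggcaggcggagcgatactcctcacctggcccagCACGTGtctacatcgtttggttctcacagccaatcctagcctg
Per1, E-box at -166 to -161, chr11:69098746-69098825, plus strand: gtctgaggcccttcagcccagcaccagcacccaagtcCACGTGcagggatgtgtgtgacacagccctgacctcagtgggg
Per3, D-boxes at -205 to -198 and at -158 to -151, chr4:151044780-151044906, minus strand: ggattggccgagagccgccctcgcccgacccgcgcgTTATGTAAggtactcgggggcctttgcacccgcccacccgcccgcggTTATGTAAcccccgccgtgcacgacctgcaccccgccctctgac
Cry2, E′-box on the opposite strand at -166 to -161, chr2:92434193-92434272, minus strand: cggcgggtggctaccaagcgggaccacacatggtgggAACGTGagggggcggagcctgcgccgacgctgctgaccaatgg
Arntl, ROR element core at 31 to 37, chr7:113207530-113207559, plus strand: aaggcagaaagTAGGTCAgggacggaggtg

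Of the 14 windows 3 held an E-box, 2 an E′-box, 1 a D-box and 1 a ROR element core. Among all 32851 promoter windows of this length an E-box occurred in 7.15%, an E′-box in 4.68%, a D-box in 1.06% and a ROR element core in 6.45%, so 1 window with a ROR core is about what the background gives. The windows of 3 of the genes held none of these letters. The matches are descriptions of the letters in these windows. The Per3 window held 2 D-boxes, the sequence that DBP and TEF bind, and an Arntl window held the core at which the REV-ERB and ROR receptors meet.

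Detection set what could be tested. Values are given either as deposited intensity, which is background-subtracted but not normalized between arrays, or as log2 signal after normalization, to which 58.7 units were added before the log2 step, so that fold changes of dim genes are understated. A gene was tested when its detection p-value (1 minus the deposited detection score) was under 0.05 on at least 3 of the 6 arrays. Arntl, Nr1d1, Nr1d2, Dbp and Tef were detected on all 6 arrays. Per1, Per2 and Clock were detected on 2 arrays and Per3 and Cry2 on 1, and these 5 genes were left out of the test.

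For 4 of these 5 genes the score did not follow the brightness of the row. Clock, the partner of ARNTL, had intensities of 271.0, 224.6 and 493.5 in Coco/KO soleus with scores of 0.50, 0.25 and 0.97, against 309.5, 501.8 and 378.7 in wild-type soleus with scores of 0.90, 0.95 and 0.91. The median score of the 200 rows closest in intensity was 1 on each of these arrays. Per2, Per3 and Cry2 likewise scored below the median of rows of like intensity on all arrays, except Per2 on wild-type array 1 (0.97 against 0.95). Per1, by contrast, scored with rows of its brightness and was a dim gene. The scanner table has 1 row per gene target while the authors' value table lists 46632 probes, so a row can stand for several probes, but whether the low scores come from that was not tested. Because of this, rows were also selected by brightness alone (a selection added once the data had been seen): at least 3 arrays above the intensity at which the running median score passes 0.95 (between 19.9 and 22.2, depending on the array). That selection tested 9 of the 10 genes, all but Per1.

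**Figure D1:**
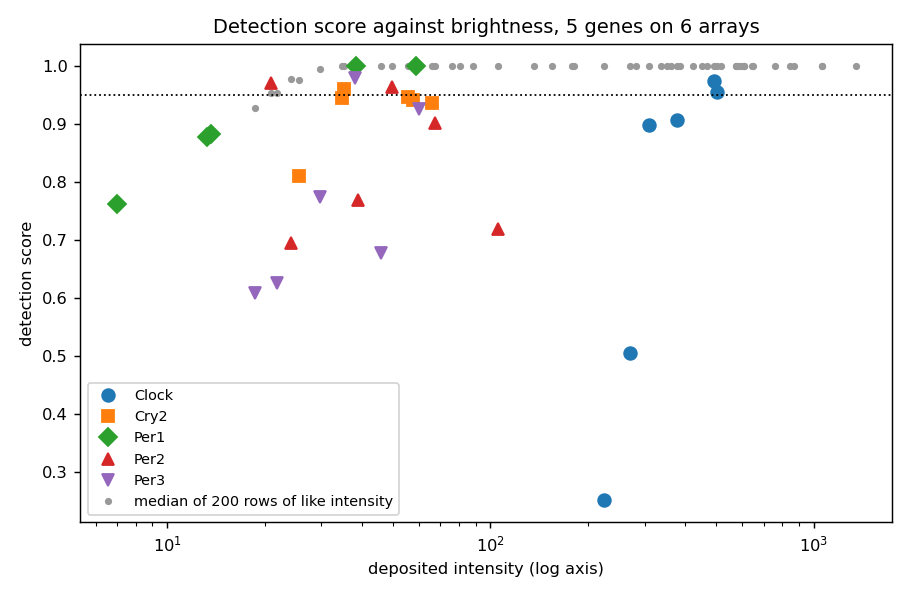
Deposited intensity (log axis) against detection score (0 to 1) for Clock, Cry2, Per1, Per2 and Per3 on each of the 6 arrays, with grey points for the median score of the 200 rows of nearest intensity and a dotted line at 0.95. Clock lies far below the grey points at intensities of 224.6 and 271.0, and Per1 lies on them. The Per1 value below 0 (-1.5) cannot be drawn on the log axis.

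On the whole chip, 18 of 12135 genes differed between genotypes at an adjusted p of 0.05, which is 0.148%. Acta1, skeletal muscle alpha-actin, checked the labels: its log2 signal was 11.17, 10.92 and 10.49 in Coco/KO soleus, against 15.49, 15.60 and 15.27 in wild-type soleus. Actc1, cardiac alpha-actin, had 12.93, 12.19 and 12.27 in Coco/KO soleus, against 10.37, 10.35 and 9.35 in wild-type soleus. Between 11606 and 13071 rows were detected per array, and mean intensities lay between 330.2 and 470.2. The Coco/KO 1 array had the lowest mean correlation with the other arrays (0.970). All 7 slow fibre markers were tested, with 6 higher and 1 lower in Coco/KO soleus, none past the threshold, and a median log2 difference of 0.04. Their summed intensity was 203223.9 to 227055.8 in Coco/KO and 198732.0 to 236804.1 in wild-type soleus. The 3 fast fibre markers tested all lay lower in Coco/KO soleus, none past the threshold, with a median log2 difference of -1.004 and sums of 3049.7 to 10366.5 in Coco/KO and 7978.1 to 20329.2 in wild-type soleus. In bulk RNA fewer cells of a type and less RNA per cell cannot be told apart.

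None of the 5 clock genes tested passed the threshold in limma (adjusted p from 0.328 to 0.966), and 1 of them, Nr1d1, had an unadjusted p under 0.05, where 8.21% of all genes tested did. Of the 5, 3 were higher and 2 lower in Coco/KO soleus, with a median log2 difference of 0.12, against 0.00 over all genes. Selection by brightness called 0 of 9 in limma, where 0.147% of 12943 genes were called. In it 2 of the 9, Nr1d1 and Per2, had an unadjusted p under 0.05, where 8.29% of genes did. With no selection all 10 were tested and 0 were called in limma (0.0682% of 32278 genes were), and the same pair of genes had an unadjusted p under 0.05 (6.53% of genes did).

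**Figure D2:**
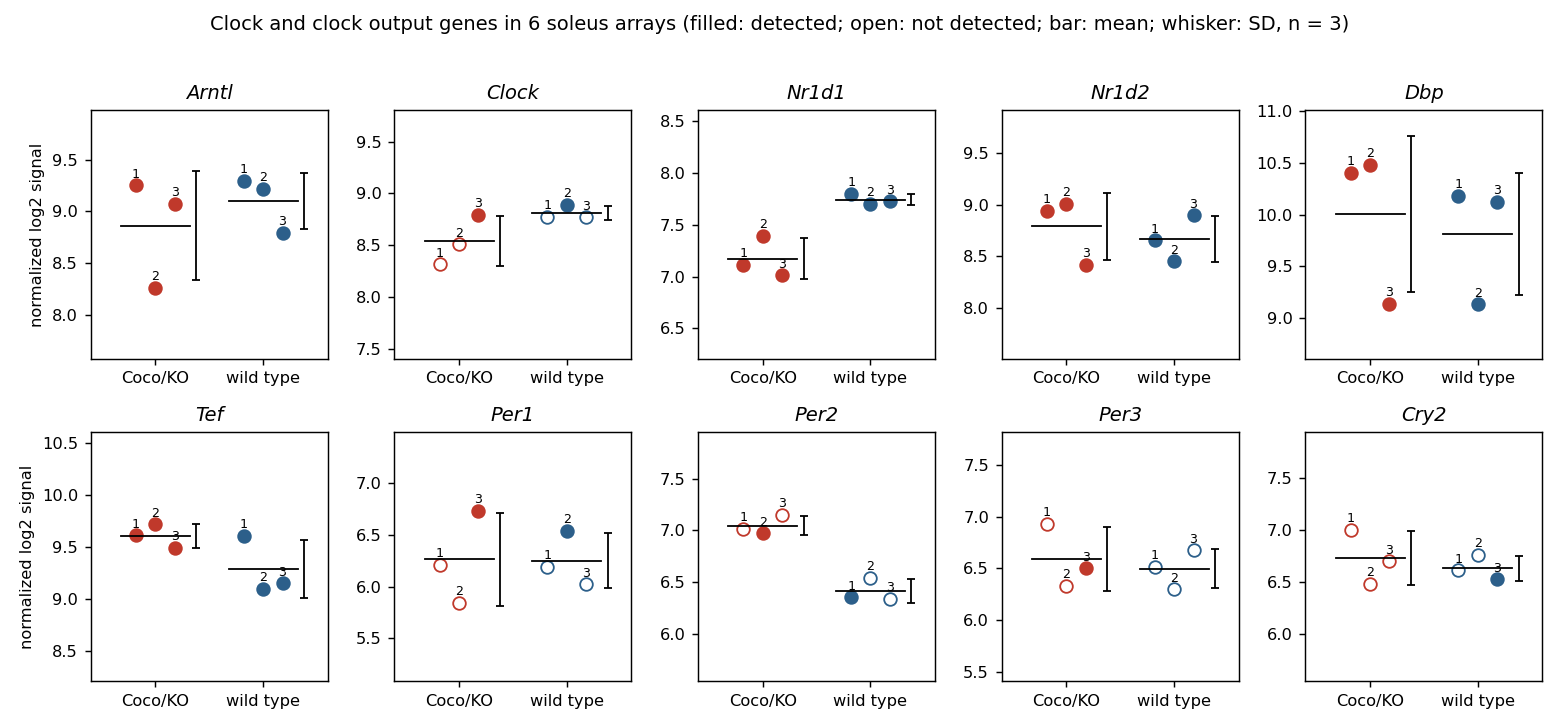
Normalized log2 signal (y axis) of the 10 genes on the 3 Coco/KO arrays (red) and the 3 wild-type arrays (blue), numbered by replicate, with the mean as a bar and the SD as a whisker. Nr1d1 and Per2 are the panels in which no Coco/KO array overlaps a wild-type array, and Dbp has 1 low array in each genotype. With no selection of rows, 11.4% of all genes had no such overlap.

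Nr1d1, which encodes the repressor REV-ERB alpha, had the lowest p of the clock genes tested. Its deposited intensity was 76.3, 80.7 and 88.6 in Coco/KO soleus, against 136.8, 178.4 and 155.3 in wild-type soleus. The groups did not overlap in intensity or in log2 signal. In log2 signal 12.7% of all genes tested had no overlap (6.58% with Coco/KO lower), and the share in intensity was not counted. The error over the 50 to 66 beads of an array was between 7.03 and 13.2 intensity units, which covers the error within an array and not that between pools. Mean intensity was 81.9 ± 6.23 in Coco/KO and 157 ± 20.8 in wild-type soleus (SD, n = 3 each), a ratio of 0.522. On the normalized scale the log2 signal was 7.17 ± 0.20 in Coco/KO and 7.74 ± 0.05 in wild-type soleus (SD, n = 3 each), a difference of -0.57 (SE 0.15, 95% interval of the limma fit without adjustment -0.92 to -0.23, adjusted p = 0.328). An exact permutation test, two-sided, returned p = 0.1, the smallest that 3 arrays against 3 allow. The size of the difference depended on the background step. It was -0.63 without the offset of 16, where 42.7 units were still added, and -0.13 with background modelled from detection p-values. It did not pass the threshold with either.

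Nr1d1 overlaps Thra, the thyroid hormone receptor alpha gene, by 1075 bases at chromosome 11 (Nr1d1 from 98767932 to 98775377, Thra from 98740776 to 98769006, GRCm38.p6), and the pair are a textbook case of genes that converge on opposite strands. Thra is outside the rule for naming genes and was added because of this overlap. Its intensity was 61.1, 21.1 and 39.3 in Coco/KO soleus, against 43.6, 73.3 and 63.0 in wild-type soleus. The groups overlapped, and the log2 difference was -0.24 (SE 0.18, limma adjusted p = 0.806).

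Nr1d2, which encodes the paralog REV-ERB beta, did not show the genotype difference seen for Nr1d1. Its intensity was 450.2, 336.0 and 361.3 in Coco/KO soleus, against 281.8, 351.3 and 422.5 in wild-type soleus, and the groups overlapped. The log2 difference was 0.12 (SE 0.20, interval -0.34 to 0.58, limma adjusted p = 0.951). Among the Coco/KO arrays both genes had their highest log2 signal on Coco/KO 2 and their lowest on Coco/KO 3, an order not seen in deposited intensity. Within an array, the log2 signal of Nr1d2 minus that of Nr1d1 was 1.83, 1.61 and 1.41 in Coco/KO soleus, against 0.85, 0.75 and 1.17 in wild-type soleus. This difference between the paralogs therefore separated the genotypes without overlap, by 0.69 on average, with SDs of 0.21 and 0.22 (n = 3 each). It contains the Nr1d1 values and is no further support for them.

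**Figure D3:**
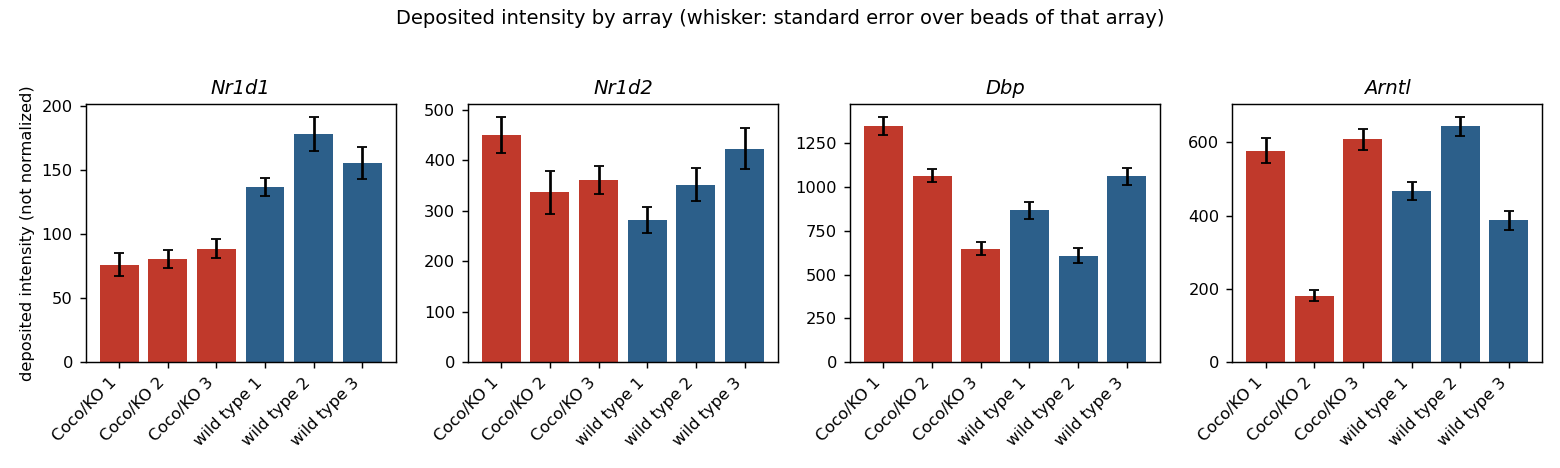
Deposited, unnormalized intensity (y axis, from 0) of Nr1d1, Nr1d2, Dbp and Arntl on each array, Coco/KO in red and wild type in blue, with the standard error over the beads of that array as whiskers. All 3 Coco/KO bars of Nr1d1 are below all 3 wild-type bars, while the lowest Dbp bars are Coco/KO 3 (647.3) and wild type 2 (607.4).

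Dbp and Tef, the PAR bZIP outputs, did not pass the threshold. Dbp had intensities of 1348.2, 1065.1 and 647.3 in Coco/KO soleus, against 866.6, 607.4 and 1060.1 in wild-type soleus. Its bead error was between 3.70% and 7.07% of the intensity, which covers the error within an array only. In log2 signal it had 10.40, 10.48 and 9.14 in Coco/KO soleus, against 10.18, 9.13 and 10.12 in wild-type soleus. Each genotype thus had 1 array well below its other arrays. The Dbp difference between genotypes was 0.20 (SE 0.40, interval -0.71 to 1.10, limma adjusted p = 0.966), an interval that leaves room for a rise or a fall.

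Tef had intensities of 761.5, 598.6 and 843.1 in Coco/KO soleus, against 576.3, 589.1 and 516.6 in wild-type soleus. The intensities did not overlap, but after quantile normalization the groups did, since wild-type array 1 (log2 9.61) then lay among the Coco/KO arrays (9.61, 9.72 and 9.49). With median scaling they did not overlap (9.70, 9.39 and 9.79 in Coco/KO soleus, against 9.33, 9.33 and 9.15 in wild-type soleus). The share of all genes without overlap was not counted in intensity or with median scaling. Its log2 difference was 0.32 (SE 0.18, interval -0.08 to 0.72, limma adjusted p = 0.696).

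Among the period genes, Per2 had its 3 highest arrays in Coco/KO soleus but was not in the main test. Its intensity was 67.3, 49.7 and 105.8 in Coco/KO soleus, against 21.0, 39.0 and 24.1 in wild-type soleus, with no overlap. Log2 signal was 7.02, 6.97 and 7.15 in Coco/KO soleus, against 6.36, 6.54 and 6.34 in wild-type soleus. With rows selected by brightness the difference was 0.63 (SE 0.14, interval 0.31 to 0.96) with a limma adjusted p of 0.232, and 12.8% of genes in that selection had no overlap (6.30% with Coco/KO higher). The exact two-sided permutation p was 0.1. The row scored as detected on 1 array of each genotype (Coco/KO 2 and wild type 1), and its brightest array, Coco/KO 3, had a score of 0.72, so the level is an uncertain one. With modelled background the difference was 0.08.

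Per1 was at or near background on 4 arrays. Its intensity was 13.7, -1.5 and 59.0 in Coco/KO soleus, against 13.3, 38.5 and 7.0 in wild-type soleus, and the arrays that detected it were Coco/KO 3 and wild type 2. Per3 had 59.9, 18.7 and 38.1 in Coco/KO soleus, against 29.6, 21.9 and 45.8 in wild-type soleus. Cry2, the cryptochrome partner of the PER proteins, had 66.1, 25.6 and 55.6 in Coco/KO soleus, against 34.7, 57.5 and 35.2 in wild-type soleus. The groups overlapped for Per1, Per3 and Cry2, with log2 differences of 0.01, 0.09 and 0.10.

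The activators gave no separation of the genotypes either. Arntl had intensities of 576.5, 181.9 and 608.4 in Coco/KO soleus, against 467.0, 643.7 and 387.2 in wild-type soleus. The Coco/KO 2 array was by far the lowest, at 8.26 in log2 signal where the other 5 arrays had 8.79 to 9.29. For 18.1% of all genes tested Coco/KO 2 was the lowest array. The Arntl difference was -0.24 (SE 0.27, interval -0.85 to 0.37, limma adjusted p = 0.919). Clock had log2 signals of 8.32, 8.51 and 8.79 in Coco/KO soleus, against 8.78, 8.89 and 8.77 in wild-type soleus. Its difference, with rows selected by brightness, was -0.27 (SE 0.16, interval -0.65 to 0.10, limma adjusted p = 0.733), and Coco/KO array 3 overlapped the wild-type arrays.

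Read array by array in normalized log2 signal, Dbp and Arntl had the widest spread of the 10 genes within genotypes. It was wider than their difference between genotypes. Within a genotype the SD was 0.68 for Dbp and 0.42 for Arntl, against 0.37 for Per1, 0.14 for Nr1d1 and 0.10 for Per2. The constant added before the log2 step narrows the spread of dim genes such as Per1 and Per2. In deposited intensity Per2 was 74.3 ± 28.7 in Coco/KO and 28.0 ± 9.62 in wild-type soleus (SD, n = 3 each). Dbp was 1020 ± 353 and 845 ± 227, so relative to its mean Per2 did not spread less. Without the offset of 16, where 42.7 units were still added, Per1 (Coco/KO 5.38 to 6.50, wild type 5.61 to 6.26) spread more than Arntl (8.18 to 9.21, 8.74 to 9.26). The arrays Coco/KO 3 and wild type 2 had the lowest Dbp, at 0.77 and 0.78 below its mean over the 6 arrays. The same arrays had the lowest Nr1d2 (8.42 and 8.45, where the others had 8.65 or more) and the highest Per1 and Clock, though for Clock the next array was close (8.79 and 8.89, against 8.78). Per1 and Dbp, both targets of ARNTL and CLOCK, thus lay at opposite ends there. The other genes studied did not single out this pair. Ranked from the lowest, Coco/KO 3 and wild type 2 were 3 and 1 for Tef, 1 and 4 for Nr1d1 and 3 and 4 for Arntl. They were 6 and 3 for Per2, 3 and 1 for Per3 and 4 and 5 for Cry2. Over all genes tested, Coco/KO 3 and wild type 2 were the lowest 2 arrays for 8.32% of genes and the highest 2 for 6.24%. They also had the highest mean intensities of the chip (470.2 and 452.3, where the others had 330.2 to 416.9), and the part of this in the clock values was not tested. With median scaling in place of quantile normalization they were still lowest for Dbp, as they were for 2.03% of all genes, but no longer for Nr1d2.

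Coco/KO 2 had the lowest Arntl (8.26), also with median scaling (7.94), and the lowest Per1, a value below background. It also had the highest Dbp (10.48) and Nr1d2, but not with every normalization. With median scaling Coco/KO 1 was highest for both (Dbp 10.48, against 10.16 on Coco/KO 2, and Nr1d2 9.01, against 8.65), as it was in deposited intensity. Dbp minus Arntl, a within-array contrast of genes of opposite phase, was 1.15, 2.22 and 0.07 in log2 in Coco/KO soleus, against 0.89, -0.08 and 1.33 in wild-type soleus. It averaged 1.15 ± 1.08 in Coco/KO and 0.71 ± 0.72 in wild-type soleus (SD, n = 3 each), a difference of 0.44 that is smaller than either SD. Opposite movement of these genes was not uniform. Dbp and Arntl both lay above their means over the 6 arrays on Coco/KO 1, by 0.49 and 0.27, and on wild type 1, by 0.27 and 0.31. No correlation between clock genes is reported, since after quantile normalization the arrays fall into separate clusters of Dbp level. Median-scaled Dbp was more graded, at 10.48, 10.16 and 9.43 in Coco/KO soleus, against 9.87, 9.37 and 10.11 in wild-type soleus.

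Nr1d1 and Per2 had no overlap between genotypes in log2 signal. With no selection of rows these were 2 of 10 genes, where 11.4% of 32278 genes had no overlap. No pattern is read from the pair, and the deviations restate the values given above. Nr1d1 was 0.35 below its mean on Coco/KO 1, 0.07 below it on Coco/KO 2 and 0.45 below it on Coco/KO 3, while all 3 wild-type arrays were 0.24 to 0.34 above it. Per2 was 0.24 to 0.42 above its mean on the Coco/KO arrays and 0.19 to 0.39 below it on the wild-type arrays. All 9 macrophage markers tested lay higher in Coco/KO soleus, none past the threshold. Of the 9, 5 had no overlap in log2 signal, where 12.7% of all genes tested had none. An unadjusted limma p under 0.05 was found for 6 of the 9, and for 8.21% of all genes tested. The summed deposited intensity of the 11 was 3800.6 to 10658.1 in Coco/KO, against 2792.8 to 3256.0 in wild-type soleus (Ptprc was detected on no array). How often such sums separate the genotypes was not counted. Adipocyte markers lay lower for all 6 of those tested, none past the threshold, with sums of 21635.8 to 30549.0 in Coco/KO and 25328.4 to 50713.0 in wild-type soleus (Plin1 was detected on no array). Other marker lists also lay mostly lower, with none past the threshold: fibroblast and tendon 4 of 6 tested (median log2 difference -0.51), smooth muscle and pericyte 3 of 4 (-0.44), Schwann cell 3 of 3 (-0.22), red blood cell 3 of 4 (-0.19), and the fast fibre list given above. Of the endothelial markers 2 of 4 lay lower (-0.02), and of the slow fibre markers 6 of 7 lay higher (0.04). The part of these cells in the clock values was not tested.

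**Figure D4:**
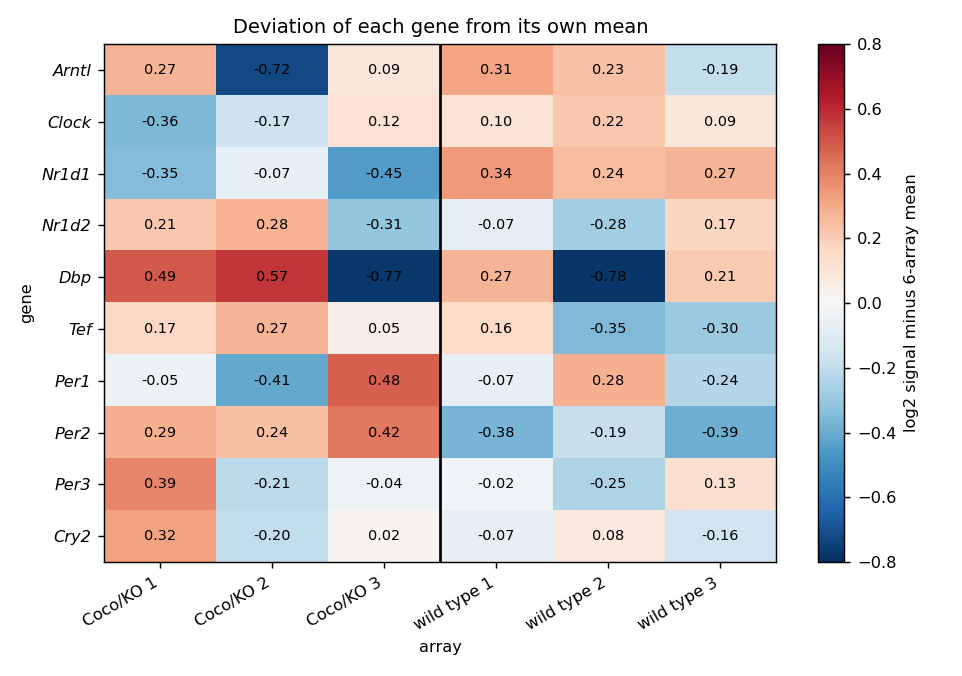
Log2 signal of each gene minus its mean over the 6 arrays (colour and printed value), with genes as rows and arrays as columns, Coco/KO left of the line and wild type right of it. The Nr1d1 and Per2 rows change colour at the line, while the Dbp row is lowest on Coco/KO 3 (-0.77) and wild type 2 (-0.78). With no selection of rows, 11.4% of all genes had no overlap between genotypes.

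The wider clock network was described from 4 lists with 26 genes, of which 25 had a row and 14 were tested. None passed the threshold in limma (lowest adjusted p = 0.439), and 2 (Fkbp5 and Bhlhe40) had an unadjusted p under 0.05. Of the 14, 9 were higher and 5 lower, with a median log2 difference of 0.07, and 2 (Fkbp5 and Pfkfb3) had no overlap between genotypes. Among all genes tested 8.21% had an unadjusted p under 0.05 and 12.7% had no overlap (6.16% with Coco/KO higher and 6.58% with Coco/KO lower), so these counts are near the background.

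Of 8 other core clock genes 3 were tested, with 2 higher and 1 lower. Bhlhe40 (Dec1), a repressor that competes at E-boxes, had log2 signals of 11.01, 10.92 and 12.02 in Coco/KO soleus, against 12.20, 12.19 and 11.90 in wild-type soleus, a difference of -0.78 (SE 0.28, limma adjusted p = 0.481) in which Coco/KO 3 overlapped the wild-type arrays. With 1 array left out the Bhlhe40 difference lay between -1.13 (without Coco/KO 3) and -0.57 (without Coco/KO 2), and it did not pass in any of these fits. Ciart (0.25, SE 0.15), a repressor of the loop, and Rorb (0.06, SE 0.17) did not separate.

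Of 6 genes of clock protein turnover 3 were tested, and all 3 were slightly higher, with none past the threshold: the casein kinases Csnk1e (0.23, SE 0.19) and Csnk1d (0.19, SE 0.19), which phosphorylate PER proteins, and the ubiquitin ligase subunit Fbxw11 (0.07, SE 0.17). Of the PAR bZIP list, Hlf was detected on no array. Nfil3, the repressor that competes for D-boxes, was not analysed here.

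Of 11 rhythmic output genes 9 were tested, with 5 higher and 4 lower. Ciart is among the 5, is also in the list of other core clock genes, and is counted once in the totals over the lists. Fkbp5, a chaperone partner of the glucocorticoid receptor, had log2 signals of 9.01, 8.81 and 8.55 in Coco/KO soleus, against 8.23, 8.49 and 7.84 in wild-type soleus, with no overlap and a difference of 0.61 (SE 0.20, limma adjusted p = 0.439). Pfkfb3, a regulator of glycolysis, had a difference of -0.31 (SE 0.15) with no overlap, and Pdk4, which turns off glucose oxidation, had -0.51 (SE 0.29), which was -0.21 without Coco/KO 1. Usp2, a deubiquitinase controlled by the clock, had 0.30 (SE 0.17). With modelled background Fkbp5 was 0.32 and Pfkfb3 -0.04.

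**Figure D5:**
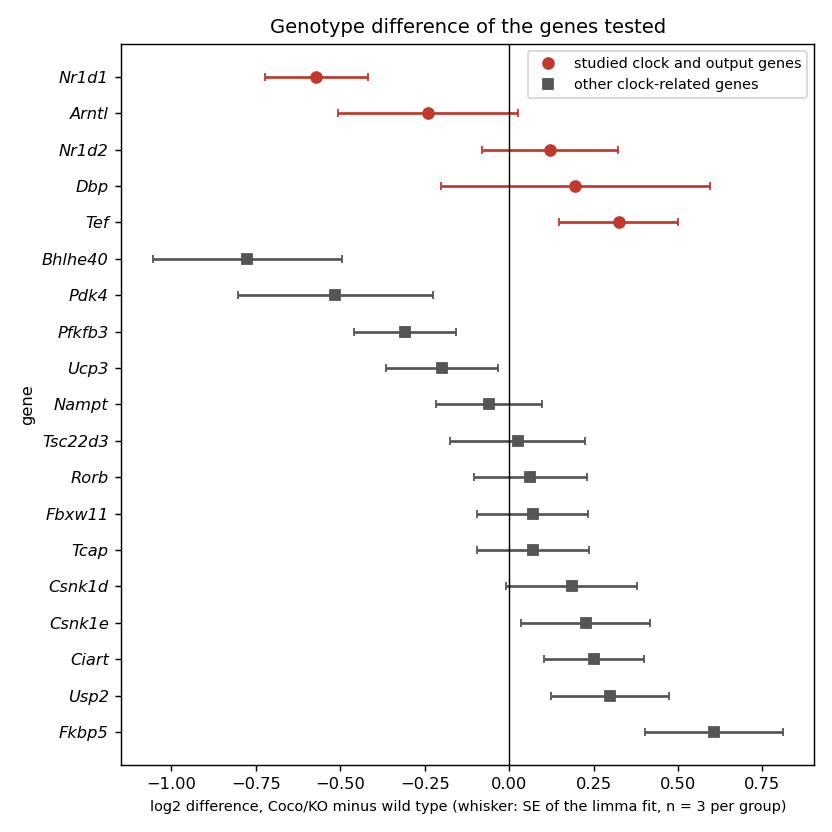
Log2 difference, Coco/KO minus wild type, with the SE of the limma fit, for the 5 studied genes tested (red circles) and the 14 other clock-related genes tested (grey squares). Nr1d1 (-0.57) and Bhlhe40 (-0.78) lie lower and Fkbp5 (0.61) higher, and none of these genes passed the threshold.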

How the data were processed

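The authors deposited intensity values from BeadStudio 3.2.6, 1 row per gene target; per the file headers no normalization between arrays had been applied. Between 30.1% and 32.9% of values per array lie at or below 0. The deposited detection score is a fraction, 1 minus the detection p-value. The authors also deposited a log2 table of 46632 probes (array medians 7.75 to 7.76), which nothing here pairs with genes, so only its number of probes was used. Its normalization is not stated in these sources, and the submitters' processing notes list BeadStudio and limma.

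Adding 42.7 made the lowest intensity 1, and an offset of 16 was added before log2 and quantile normalization. Testing was limited to rows detected (p under 0.05) on 3 or more of the 6 arrays, 12611 rows, with the brightest row standing for each of 12135 genes. Of the 34492 row names, 22815 matched RefSeq (GRCm38.p6), 6476 of them by synonym. The difference, Coco/KO minus wild type, was fitted in limma 3.58.1 (R 4.3.3), with Benjamini-Hochberg adjustment over all genes and a threshold of 0.05. The fit was tried on simulated data with independent noise and with changes larger than the differences of the clock genes. That trial does not cover changes as small as theirs, nor shifts shared by many genes on an array. The genes and lists were chosen with earlier results of these data known. Named were all 10 genes, up to 4 genes of lowest p per list, both actins, and the 5 genes most like Dbp and most like Arntl; Thra and Wee1 were added after their values were seen. One listed gene is not reported here. Replicate numbers name different pools and were not used as a block in the main fit. Precision is limited by having 3 arrays a genotype. Alternatives covered background, normalization, row selection, the variance model, chip position and leaving out each array.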

Additional observations from a re-analysis of the deposited data

How the results depend on the processing

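No clock gene or listed gene passed the threshold in limma in any of the 19 alternatives that tested it. Per2, Per3, Clock and Cry2 were tested in only 2 of these, Per1 in 1 and Nfil3 in none. Selecting rows by brightness was added once the data had been seen. Nr1d1 was lower in all 19 (log2 difference -0.70 to -0.13), and Per2 was higher in all 13 that gave it a value (0.08 to 0.75). These counts are no further support, since many of the alternatives could hardly turn the sign. Those that change only row selection or the replicate block keep the same signals and return -0.57 for Nr1d1. As the groups of neither gene overlapped, leaving out 1 array could hardly turn it either. Dbp turned to -0.11 with chip position in the model, -0.04 without Coco/KO 2 and -0.14 without wild type 2, and with 1 array left out it ranged from -0.14 to 0.63. Likewise Arntl ranged from -0.43 to 0.063 (above 0 without Coco/KO 2), Rorb from -0.0197 to 0.197 (below 0 without wild type 3), Fbxw11 from -0.0089 to 0.185 (below 0 without Coco/KO 1) and Dbp minus Arntl from -0.10 to 0.97. The sign also turned for genes outside the main test, Per1 (-0.22 to 0.23), Per3 (-0.08 to 0.23) and Cry2 (-0.04 to 0.23). Pdk4 was -0.21 without Coco/KO 1, -0.35 without wild type 2 and -0.74 without Coco/KO 3. The number of genes past the threshold, 18, was 11 with an offset of 50, 2 with modelled background, 5 with median scaling, 9 with detection on all 6 arrays and 11 with chip position, and 5 to 27 with 1 array left out. The cause of these shifts was not tested. Same-numbered arrays did not deviate together (correlations -0.05, -0.29 and 0.09), and the replicate number as a block gave 13 genes and an adjusted p of 0.515 for Nr1d1. It changed no call among the clock genes. The authors' value table could not be used as an alternative, since its probes are not paired with genes here, and each clock gene had only 1 row to choose from.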

Other observations

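Across the 6 arrays, which share 1 chip, Pearson's r was used only to rank genes by likeness. The 5 genes with the highest r to Dbp were Prpf19, a splicing and ubiquitin ligase factor (0.995), Mrps16, a mitochondrial ribosome subunit (0.992), Zfp36l2 (0.980), Borcs6 (0.978) and Dbnl (0.977). Of 12134 genes compared, 41 had an r with Dbp above 0.95. After quantile normalization the arrays fall into separate clusters of Dbp level, so these values are given as a description only. The 5 closest to Arntl were Zfp954 (0.979), the RNA helicase gene Dhx33 (0.978), the pericyte receptor Pdgfrb (0.976), Tmem135 (0.971) and the integrin subunit Itga10 (0.970), and 14 genes were above 0.95. Arntl lay far below its other arrays on Coco/KO 2 (8.26 in log2 signal), which was the lowest array for 18.1% of all genes tested. The values for Arntl are likewise a description only.

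Wee1, a cell cycle kinase gene with a known E-box input from the clock, was singled out after its values were seen. It was detected on no array. Its log2 signal was 6.58, 6.20 and 6.73 in Coco/KO soleus, against 6.02, 6.19 and 5.90 in wild-type soleus, a narrow gap that is not there in deposited intensity (13.0 on Coco/KO 2, against 15.2 on wild type 2). With no selection of rows, 11.4% of genes had no overlap in log2 signal. Cry1, the paralog of Cry2, and Hlf, the third PAR bZIP gene, were also detected on no array, and Npas2, which can stand in for Clock, on 1.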
